A study of Mus musculus with 9 samples.

Results

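The genes that write, maintain, remove and read DNA methylation were followed in stimulated mouse B-lymphoma cells treated with solvent or with either of 2 inhibitors of histone H3 lysine methylation. The members were the rows of the count table whose symbol is Dnmt1, Uhrf1, Dnmt3a, Dnmt3b, Tet1, Tet2, Tet3, Tdg or Mbd2. They are 9 of 45361 gene identifiers, and all 9 were among the 12580 genes with enough counts to be tested. In the table their identifiers are ENSMUSG00000004099 (Dnmt1), ENSMUSG00000020661 (Dnmt3a), ENSMUSG00000027478 (Dnmt3b), ENSMUSG00000001228 (Uhrf1), ENSMUSG00000047146 (Tet1), ENSMUSG00000040943 (Tet2), ENSMUSG00000034832 (Tet3), ENSMUSG00000024513 (Mbd2) and ENSMUSG00000034674 (Tdg). Dnmt1, Dnmt3a, Uhrf1, Tet2 and Tet3 transcripts were lower with valemetostat than with DMSO: the fitted level fell by 10.2% for Dnmt1 and by 25.2% for Tet3, the ends of the range. No member rose with either inhibitor in the main test on all genes. With an offset for transcript length and GC content, calls of Dnmt1 and Dnmt3a, and that of Tet3 with tazemetostat, ended. Those of Uhrf1 and Tet2, and that of Tet3 with valemetostat, held under it. The same offset called Dnmt3b higher with both inhibitors and Mbd2 lower with valemetostat. Length-related shifts went with the groups, so the offset cannot separate them from an effect of the inhibitors.

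CH12F3 is a mouse B-lymphoma cell line used to study antibody class switching. All 9 libraries came from CH12F3 cells labelled as Ligase4 knockouts, lacking the ligase of classical end joining, and in each of them anti-CD40, IL-4 and TGF-β were applied over 24 h. The controls received DMSO, a second group tazemetostat, an inhibitor of the methyltransferase EZH2, and the third group valemetostat, an inhibitor of EZH1 and EZH2, with 3 libraries in each group. The labels give no doses, no length of inhibitor treatment and no number of knockout clones. Whether replicates were separate cultures is not labelled, so p-values capture only library-to-library spread, possibly technical.

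In mammals DNMT3A and DNMT3B place methyl groups on cytosines of CpG dinucleotides, and DNMT1, guided by UHRF1 to newly replicated DNA, copies the pattern after cell division. TET1, TET2 and TET3 oxidise 5-methylcytosine, TDG removes the oxidised bases so that repair restores cytosine, and MBD2 binds methylated CpG and recruits the NuRD repressor complex. In B cells DNMT1 and UHRF1 are prominent during proliferation, and TET2 and TET3 act in activation and class switching.

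The libraries held 34080504 to 46675110 counts, and 3 counts corresponded to 0.0633 to 0.087 CPM, the unit of count levels here, scaled by library total and TMM factor. The limit of 3 counts covers counting error alone, since the labels name no molecular identifiers that would mark PCR copies. Replicate libraries differed beyond counting noise, the chi-square over its degrees of freedom reaching 13.35. All 7 B cell markers were present, with a summed TPM (a level per transcript length, scaled to a common total) of 835 to 868 with DMSO, 874 to 912 with tazemetostat and 922 to 944 with valemetostat. That sum moved with the groups, and its part in the results was not tested. The 4 T cell markers summed to 0.8 to 8.18 TPM, the 4 myeloid markers, mainly Csf1r, to 11.6 to 16.1 TPM, the 3 stromal markers to at most 0.62 TPM with Col1a2 at 0, and the 3 endothelial markers to at most 1.26 TPM with Kdr at 0. Lig4, the gene labelled as deleted, still had 21 to 59 counts in each library. The deleted part is not given, so this checks no label.

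Start regions of the members differed in their CpG content, which is shown because CpG is the substrate of the enzymes themselves. RefSeq sequences (GRCm38.p6) of the 250 bases before annotated starts were matched for 8 of the 9 members, in 13 windows, and Mbd2 had none. A median window of all 32851 held 6 CpG. The Tet2 window at chr3:133544391-133544640 (minus strand) held 51 CpG, and 0.067% of all windows hold at least as many. Of 3 Dnmt3a windows, that at chr12:3806730-3806979 (plus strand) held 38, reached by 1.88% of windows, and the others held 40 (1.31%) and 15 (27.3%). Single windows of Dnmt3b, Tdg, Tet3 and Tet1 held 21, 19, 17 and 15. For contrast, 1 of 3 windows of Dnmt3l, at chr10:78049592-78049841 (plus strand), held 4 CpG, reached by 62.2% of windows. Dnmt3l is the DNMT3 cofactor, and its log2 fold changes were the largest among the tested genes of the wider pathway. Every CpG is in capitals in these sequences, each read on the gene's strand.
Tet2: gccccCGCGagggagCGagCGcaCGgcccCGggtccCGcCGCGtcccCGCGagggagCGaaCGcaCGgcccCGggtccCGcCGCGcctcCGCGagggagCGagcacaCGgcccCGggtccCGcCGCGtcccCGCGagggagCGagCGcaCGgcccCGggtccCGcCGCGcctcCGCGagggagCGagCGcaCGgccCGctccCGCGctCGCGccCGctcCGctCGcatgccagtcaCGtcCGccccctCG
Dnmt3a: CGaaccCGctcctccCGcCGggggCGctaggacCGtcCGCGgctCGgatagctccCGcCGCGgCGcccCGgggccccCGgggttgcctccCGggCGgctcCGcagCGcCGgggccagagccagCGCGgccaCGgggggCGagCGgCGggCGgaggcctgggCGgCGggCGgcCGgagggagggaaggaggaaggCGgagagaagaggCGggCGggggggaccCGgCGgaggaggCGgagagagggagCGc
Dnmt3l: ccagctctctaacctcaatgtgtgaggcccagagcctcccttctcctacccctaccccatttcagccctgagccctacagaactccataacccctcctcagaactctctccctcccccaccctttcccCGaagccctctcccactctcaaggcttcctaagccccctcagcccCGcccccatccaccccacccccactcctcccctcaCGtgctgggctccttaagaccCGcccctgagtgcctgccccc

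A window of each of the maintenance genes shared a further feature. Letters of the E2F kind, the recognition sequence of regulators of replication genes, were searched on both strands as TTTGGCGC, TTTCCCGC, TTTGCCGC and TTTCGCGC, and 1.86% of all windows hold at least 1 of these 4. Among the 13 windows of members, 2 held such a match, and both matches were TTTCGCGC, in Uhrf1 at chr17:56304063-56304312 (plus strand) and in Dnmt1 at chr9:20952824-20952853 (minus strand, the 30 bases around the match). The match is in capitals and lies on the opposite strand in Dnmt1. The matching windows held 30 CpG (Uhrf1) and 26 CpG (Dnmt1), and TTTCGCGC itself contains CpG. The share of matches among windows of like CpG content was not counted. The other Uhrf1 window, with 10 CpG, and the other Dnmt1 windows, with 7 and 2 CpG, held no match. A match is a description of letters, and which start these cells used was not measured.
Uhrf1: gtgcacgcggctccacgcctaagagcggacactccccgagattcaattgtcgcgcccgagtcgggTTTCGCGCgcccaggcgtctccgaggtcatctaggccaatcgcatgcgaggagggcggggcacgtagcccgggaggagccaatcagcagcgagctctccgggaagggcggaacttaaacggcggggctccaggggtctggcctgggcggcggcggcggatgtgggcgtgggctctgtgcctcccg
Dnmt1: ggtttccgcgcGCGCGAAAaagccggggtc

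The maintenance genes were at the top of the order of levels, and Tet1 at the bottom. In the DMSO libraries mean TPM was 160.1 ± 9.87 (SD, n = 3) for Uhrf1, 98.5 ± 6.22 for Dnmt1, 94.3 ± 6.11 for Tdg and 52.7 ± 1.78 for Mbd2. It was 32.4 ± 5.52 for Dnmt3a, 17.5 ± 1.52 for Dnmt3b, 12.3 ± 3.27 for Tet2, 9.10 ± 1.11 for Tet3 and 0.227 ± 0.272 for Tet1. Ranges of neighbours in this order overlapped for Dnmt1 and Tdg, for Dnmt3b and Tet2 and for Tet2 and Tet3, and were apart for the other neighbours. With tazemetostat Tdg, at 97.8 ± 0.889, lay above Dnmt1, at 89.4 ± 3.53, and with valemetostat, at 95.3 ± 2.76, above Dnmt1 at 83.3 ± 1.65, with no overlap between libraries in either group. Tet1 had 19 to 39 counts per library, so no small change of it was detectable at this depth.

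**Figure D1:**
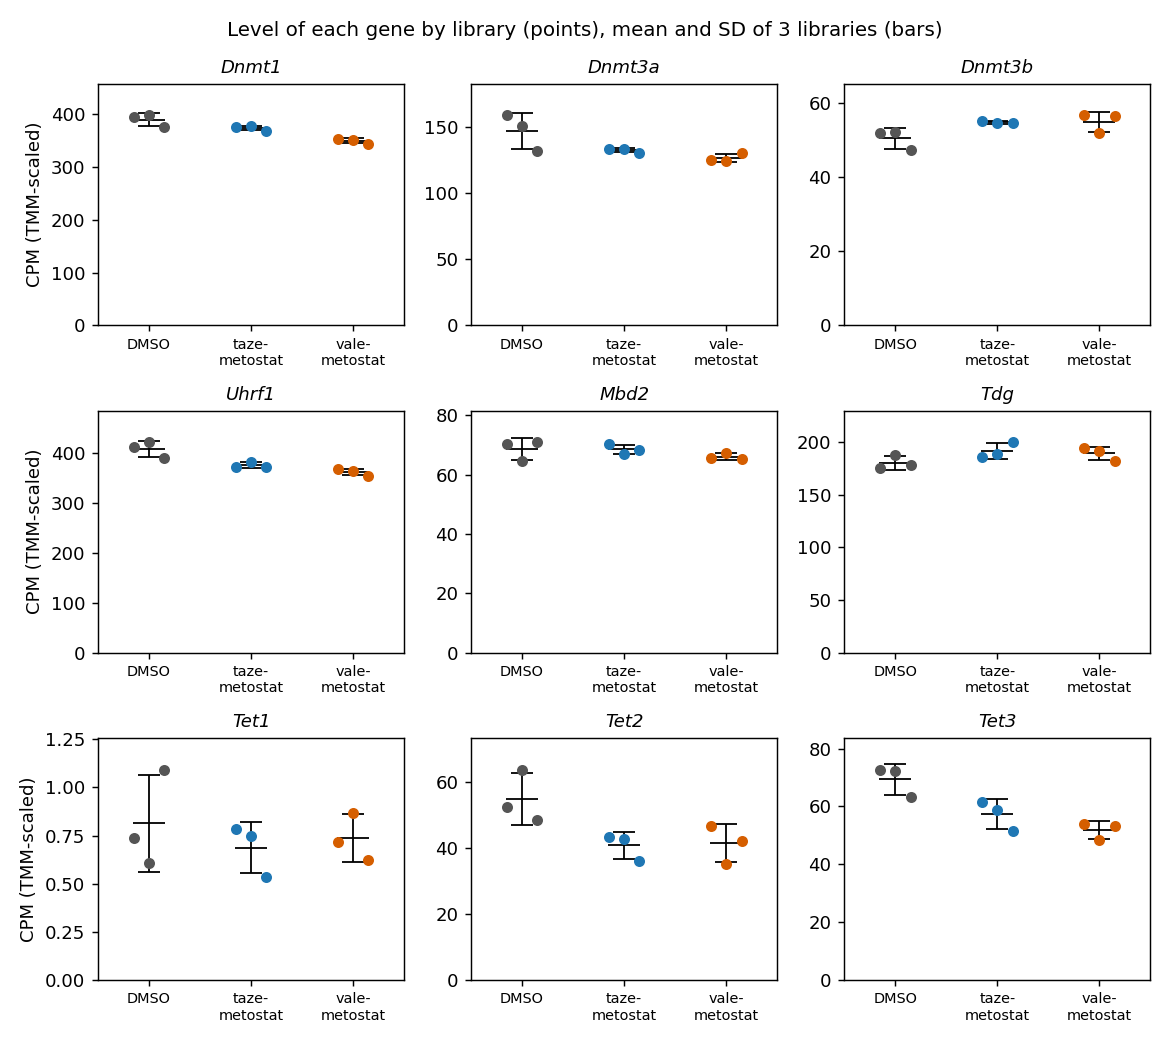
CPM (TMM-scaled, axes from 0) of each of the 9 genes in the 3 DMSO, 3 tazemetostat and 3 valemetostat libraries, with points for libraries and bars for mean and SD. Valemetostat libraries of Dnmt1, Dnmt3a, Uhrf1, Tet2 and Tet3 lie below all DMSO libraries of the same gene, while the points of Tet1, Tdg and Mbd2 overlap between groups.

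Against DMSO, 0 members rose and 4 of 9 fell with tazemetostat, at an adjusted p under 0.05 in edgeR's quasi-likelihood test over all genes. Of all genes tested, 18.2% fell and 19.9% rose. With valemetostat 0 rose and 5 of 9 fell, where 18.7% of all genes fell and 20.5% rose. The median log2 fold change of the members was -0.12 with tazemetostat and -0.16 with valemetostat, against 0.00 and 0.01 over all genes tested. Both comparisons use the same DMSO libraries. The changes are in bulk RNA, in which fewer cells of a type and less RNA per cell cannot be told apart. At an unadjusted p under 0.05 the counts were 4 and 6 members, the sixth being Dnmt3b, which was higher. The share of all genes at that unadjusted threshold was not counted, so these counts have no background beside them.

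Of the maintenance genes, Uhrf1, which reads hemimethylated CpG, fell with both inhibitors and Dnmt1 with valemetostat. Uhrf1 was at 412, 421 and 389.6 CPM under DMSO, at 372, 382 and 372 CPM under tazemetostat and at 367, 363 and 354 CPM under valemetostat. All inhibitor libraries were below all DMSO libraries. The log2 fold change was -0.12 ± 0.04 (SE, edgeR adjusted p = 0.0269) with tazemetostat, a level that fell by 7.9%. With valemetostat it was -0.17 ± 0.04 (edgeR adjusted p = 0.00179), a level that fell by 11.3%. The tazemetostat call of Uhrf1 was lost when any of 4 libraries was left out, DMSO 1 (edgeR adjusted p = 0.0622), DMSO 2 (0.118), tazemetostat 1 (0.0871) or tazemetostat 3 (0.0966).

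Dnmt1, the maintenance methyltransferase, was at 395, 399 and 376 CPM with DMSO, 375, 379 and 369 with tazemetostat and 354, 351 and 345 with valemetostat. The DMSO and tazemetostat libraries overlapped, and the valemetostat libraries were the lowest 3 of the 9. The log2 fold change was -0.06 ± 0.04 with tazemetostat (edgeR adjusted p = 0.278). It was -0.16 ± 0.04 with valemetostat (edgeR adjusted p = 0.00352), where the level fell by 10.2%.

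The de novo methyltransferases did not move together. Dnmt3a was at 159, 151 and 132 CPM with DMSO, 133, 133 and 131 with tazemetostat and 125, 125 and 130.3 with valemetostat. The third DMSO library lay among the tazemetostat libraries, and the valemetostat libraries were below all DMSO libraries. The log2 fold change of Dnmt3a was -0.15 ± 0.05 with tazemetostat (edgeR adjusted p = 0.0253) and -0.22 ± 0.05 with valemetostat (edgeR adjusted p = 0.00213), a level that fell by 10.1% with tazemetostat. The tazemetostat call did not survive leaving out DMSO 1 (edgeR adjusted p = 0.185), DMSO 2 (0.0816) or any of the 3 tazemetostat libraries (0.0529 to 0.0868).

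Dnmt3b, which methylates pericentromeric repeats besides its other targets, was at 52.0, 52.2 and 47.4 CPM with DMSO, 55.3, 54.6 and 54.6 with tazemetostat and 56.8, 52.0 and 56.5 with valemetostat. The tazemetostat libraries were above all DMSO libraries, and valemetostat 2 overlapped them. The log2 fold changes of 0.12 ± 0.06 (edgeR adjusted p = 0.124) and 0.12 ± 0.06 (edgeR adjusted p = 0.103) did not pass. Without valemetostat 2 the second did (edgeR adjusted p = 0.0478).

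Among the oxidising enzymes Tet2 and Tet3 fell with both inhibitors. Tet2 was at 52.4, 63.8 and 48.6 CPM with DMSO, 43.4, 42.8 and 36.0 with tazemetostat and 46.7, 35.2 and 42.2 with valemetostat. All inhibitor libraries were below all DMSO libraries, and DMSO 2 was the highest of the 9. The log2 fold change of Tet2 was -0.43 ± 0.12 with tazemetostat (edgeR adjusted p = 0.0186), a level that fell by 25.6%. It was -0.40 ± 0.12 with valemetostat (edgeR adjusted p = 0.0236), a level that fell by 24.5%. The first call was lost without tazemetostat 3 (edgeR adjusted p = 0.0623) and the second without valemetostat 3 (edgeR adjusted p = 0.0656). With limma on log2(TPM + 1) both were lost (adjusted p = 0.0913 and 0.0515).

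Tet3, which unlike TET2 carries its own CXXC domain for CpG binding, was at 72.7, 72.1 and 63.2 CPM with DMSO, 61.6, 58.6 and 51.4 with tazemetostat and 53.9, 48.4 and 53.4 with valemetostat. All inhibitor libraries were again below all DMSO libraries. The level fell by 17.4% with tazemetostat, a log2 fold change of -0.28 ± 0.07 (edgeR adjusted p = 0.00249). It fell by 25.2% with valemetostat, a log2 fold change of -0.42 ± 0.07 (edgeR adjusted p = 3.2e-05). Both calls of Tet3 held without any single library, but the tazemetostat call ended with limma on log2(TPM + 1) (adjusted p = 0.0669) and with a length and GC offset (log2 fold change -0.09, edgeR adjusted p = 0.178). Tet1, at 0.534 to 1.09 CPM, had log2 fold changes of -0.23 ± 0.42 (edgeR adjusted p = 0.702) and -0.14 ± 0.43 (edgeR adjusted p = 0.818), with 95% intervals from -1.11 to 0.64 and from -1.02 to 0.73.

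Tdg and Mbd2 did not pass in either comparison. Tdg was at 175, 188 and 178 CPM with DMSO, 186, 189 and 200.01 with tazemetostat and 195, 191 and 183 with valemetostat, so that groups overlapped. The 95% intervals of its log2 fold changes ran from -0.01 to 0.18 and from -0.02 to 0.16. Mbd2 was at 70.5, 64.5 and 70.9 CPM with DMSO, 70.3, 67.0 and 68.2 with tazemetostat and 65.5, 67.4 and 65.2 with valemetostat. Its intervals ran from -0.11 to 0.11 and from -0.17 to 0.06, and groups overlapped. Reads of near-identical copies could be assigned to either gene, and the copies listed had few counts, at most 3 for Tdg-ps, 18 for Tdg-ps2 and 1 for Dnmt3c in a library. Glt8d2, which overlaps Tdg on the opposite strand, had 2 to 9 counts.

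Read as overlap of libraries, Uhrf1, Tet2 and Tet3 had all tazemetostat libraries below all DMSO libraries, which held for 23.3% of all genes tested, and Dnmt3b all above, which held for 24.1%. Dnmt1, Dnmt3a, Uhrf1, Tet2 and Tet3 had all valemetostat libraries below all DMSO libraries, which held for 23.7% of all genes. Where limma was run on the deposited log2(TPM + 1) values, 1 member was called for tazemetostat, Uhrf1, and 3 for valemetostat, Dnmt1, Uhrf1 and Tet3. That fit called 3123 of the 12580 genes for tazemetostat, 37.7% of them higher, and 3308 for valemetostat, 36% of them higher. In the fit of the tazemetostat and DMSO libraries alone, the calls of Dnmt3a and Uhrf1 were lost (edgeR adjusted p = 0.0504 and 0.0574).

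The 2 inhibitors share EZH2 as a target and differ in that valemetostat also inhibits EZH1. Their doses are not given in the labels, so the following compares the groups as labelled. Of the 9 members, 0 differed between valemetostat and tazemetostat in edgeR's quasi-likelihood test and 0 in DESeq2. Of all 12580 genes, 0.318% differed in edgeR and 75 genes in DESeq2. At an unadjusted p under 0.05 1 member differed, Dnmt1, in edgeR and in DESeq2. The share of all genes at that unadjusted threshold was not counted, so this is no result about Dnmt1. The valemetostat minus tazemetostat log2 difference of Dnmt1 was -0.10, with a 95% interval from -0.18 to -0.01 (edgeR adjusted p = 0.538).

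All valemetostat libraries of Dnmt1, Dnmt3a and Uhrf1 were below all tazemetostat libraries, which held for 7.12% of all genes tested. The difference was -0.06 for Dnmt3a (95% interval -0.18 to 0.05) and -0.05 for Uhrf1 (-0.14 to 0.03). For Tet3 it was -0.14 (-0.29 to 0.00), and for Tet2 0.02 (-0.25 to 0.30), where libraries of the inhibitors overlapped. Intervals for Dnmt3b, Tdg and Mbd2 lay between -0.17 and 0.13, and that of Tet1 ran from -0.79 to 0.97. Across genes, the difference between the inhibitors also fell with transcript length (Spearman rho -0.214), and the part of length in these differences was not tested. With the length and GC offset the difference was -0.08 for Dnmt1, -0.03 for Dnmt3a and -0.06 for Uhrf1 (edgeR adjusted p = 0.364, 0.893 and 0.577). An interval that includes 0 does not show that the inhibitors act alike on a gene.

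Length of the transcript moved with these values. Over 8948 genes of at least 3 mean log2 CPM, the log2 fold change fell with the length of the longest annotated transcript, with a Spearman rho across genes of -0.347 for tazemetostat and -0.407 for valemetostat. Genes are not independent replicates, and these values are a description. The members that fell include long transcripts. Tet3, at 10904 nt, is longer than 98.5% of tested genes, Dnmt3a, at 9685 nt, than 97.5%, Tet2, at 9179 nt, than 96.9%, and Dnmt1, at 5870 nt, than 86%. Uhrf1, at 3586 nt, lies near the median of 3240.5 nt, Dnmt3b has 4320 nt, Tdg 3502 nt and Mbd2 1953 nt.

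**Figure D2:**
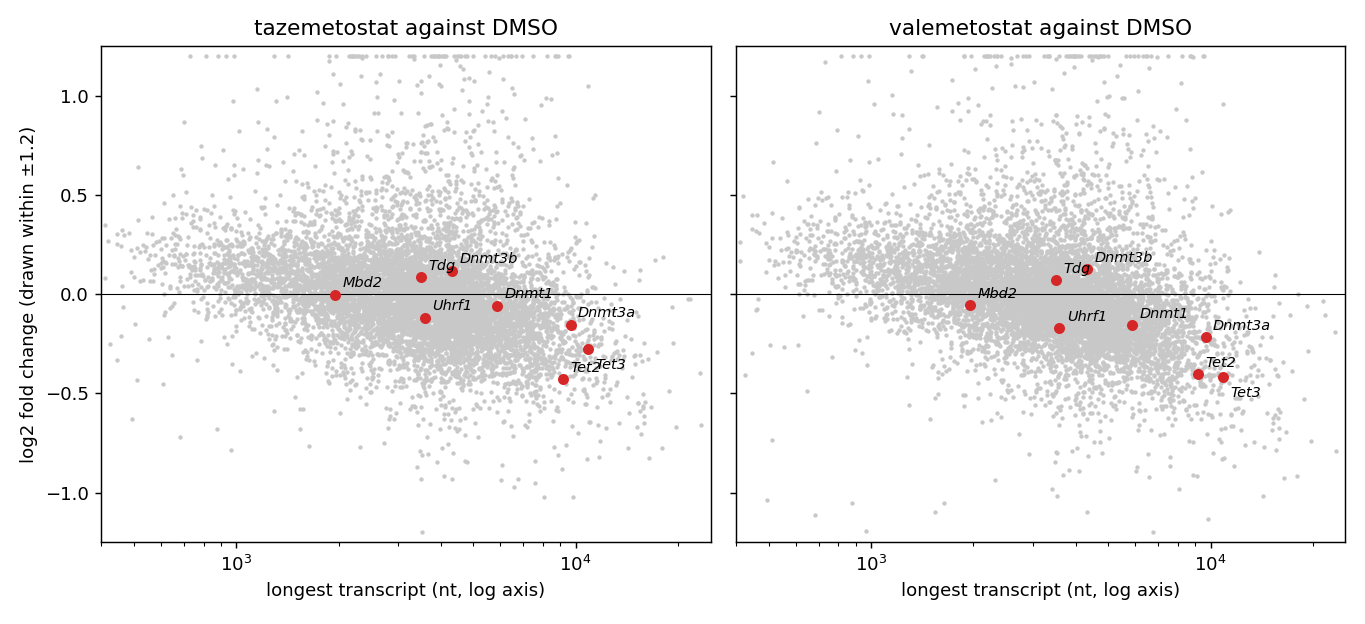
Log2 fold change against DMSO of each gene of at least 3 mean log2 CPM (grey, drawn within ±1.2) by the length of its longest transcript in nt (log axis), with members as red points and Tet1 left out by its low level. Grey points slope downward to the right, and Tet2, Tet3 and Dnmt3a lie at the long end while Uhrf1 lies near the middle of the length axis.

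The same trend was present between libraries. The rho of a library's deviation from the mean of all libraries with length was 0.208 to 0.48 for DMSO, -0.441 to -0.012 for tazemetostat and -0.454 to -0.236 for valemetostat. Within their groups, the libraries with the lowest rho, tazemetostat 3 at -0.441 and valemetostat 2 at -0.454, also had the lowest Tet2 and Tet3 levels. DMSO 2, with the highest rho of 0.48, had the highest Tet2 level of all.

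With a per-library offset fitted to transcript length and GC content, the rho across genes was -0.034 and -0.038. Because the length trend moved with the groups, the offset also takes up any inhibitor effect that goes with length. A lost or kept call therefore does not separate a technical trend from such an effect, and the cause of the trend was not tested. Under the offset 2 members, Uhrf1 and Tet2, were called lower with tazemetostat (19.2% of all genes) and 1 higher, Dnmt3b (19.3%). With valemetostat 4 were called lower, Uhrf1, Tet2, Tet3 and Mbd2 (19.5% of all genes), and again Dnmt3b higher (19.2%). Uhrf1 had log2 fold changes of -0.11 (edgeR adjusted p = 0.00987) and -0.17 (edgeR adjusted p = 0.000176), close to those without the offset.

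Tet2 had -0.29 (edgeR adjusted p = 0.00624) and -0.23 (edgeR adjusted p = 0.0285) with the offset. For Tet3 the values were -0.09 with tazemetostat (edgeR adjusted p = 0.178) and -0.19 with valemetostat (edgeR adjusted p = 0.00428). Dnmt3a had 0.01 (edgeR adjusted p = 0.93) and -0.02 (edgeR adjusted p = 0.716), so both of its calls ended. Dnmt1 had -0.06 with valemetostat (edgeR adjusted p = 0.154), which ended its call. Mbd2 had -0.13 with valemetostat (edgeR adjusted p = 0.0372), a call it did not have without the offset. Dnmt3b, at 0.14 (edgeR adjusted p = 0.0347) and 0.15 (edgeR adjusted p = 0.0297), was called under the offset and not without it, apart from the fit without valemetostat 2.

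**Figure D3:**
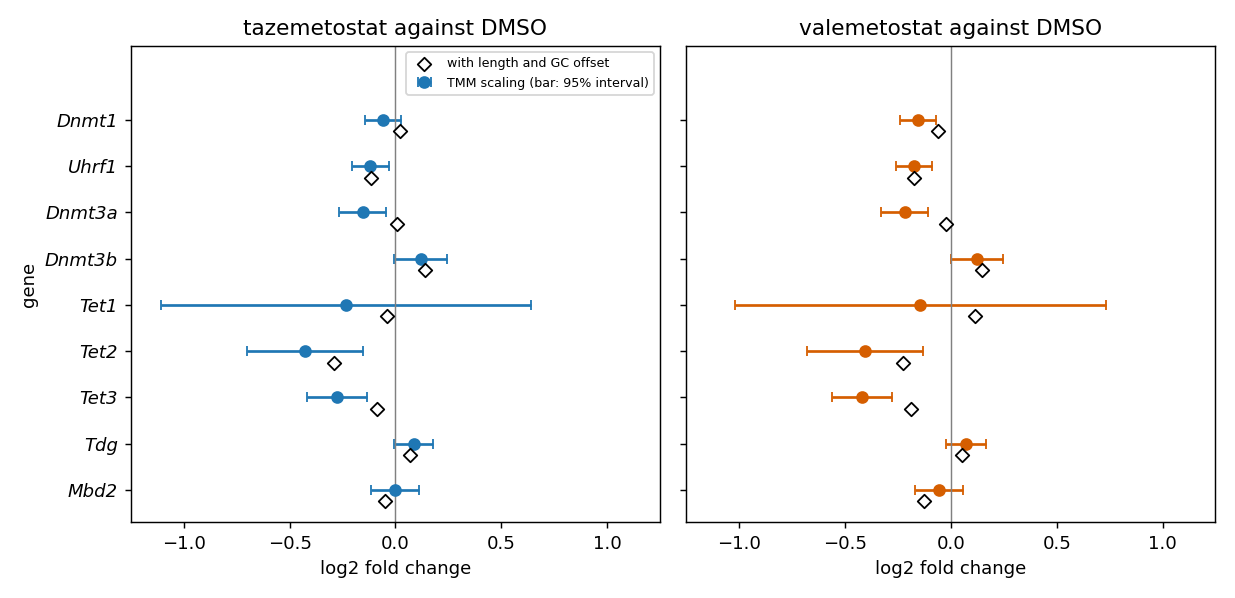
Log2 fold change of each member for tazemetostat (left) and valemetostat (right) against DMSO, as filled points with 95% intervals, and the same change with the length and GC offset as open diamonds. Diamonds of Dnmt3a, Tet2 and Tet3 lie nearer 0 than their points in both panels, as does that of Dnmt1 for valemetostat, those of Uhrf1 stay at their points, and Tet1 has the widest intervals.

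Tet3 had the smallest p of the members for the mean of both inhibitors. Among 8954 genes of at least 3 mean log2 CPM, the genes whose log2 CPM followed Tet3 most closely over the 9 libraries were Chd2 (Pearson r = 0.988), Helz2 (0.987) and Pwwp2a (0.987). The points share library and group, so the likeness is a description. Tazemetostat and valemetostat log2 fold changes were -0.41 and -0.56 for Chd2, -0.36 and -0.62 for Helz2 and -0.14 and -0.20 for Pwwp2a. The longest transcripts of Chd2 and Helz2 have 9085 and 10109 nt, as long as those of Tet2 and Tet3, while Pwwp2a has 3277 nt.

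The wider pathway was read from 8 lists with 65 further genes, of which 52 were tested. With tazemetostat 6 rose and 14 fell, where 19.9% of all genes rose and 18.2% fell. With valemetostat 6 rose and 13 fell, where 20.5% of all genes rose and 18.7% fell. The same shares are the background of each list below. The median log2 fold change was -0.04 and -0.09. In the list of DNMT partners, 6 of 7 genes were tested, and 3 rose and 2 fell in both comparisons. Dnmt3l, the catalytically inactive cofactor of DNMT3A and DNMT3B, was at 3.06, 2.41 and 2.35 CPM with DMSO, 5.41, 5.15 and 6.27 with tazemetostat and 5.21, 5.19 and 5.03 with valemetostat. All inhibitor libraries were above all DMSO libraries. Its log2 fold change was 1.09 ± 0.17 (edgeR adjusted p = 1.2e-05) and 0.97 ± 0.17 (edgeR adjusted p = 5.6e-05). Aire, which overlaps Dnmt3l on the opposite strand over 67 nt, had 4 to 27 counts per library.

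Uhrf2, the paralog of Uhrf1, rose where Uhrf1 fell, at 0.28 ± 0.05 (edgeR adjusted p = 9.3e-05) and 0.26 ± 0.05 (edgeR adjusted p = 2.8e-04). Both Uhrf2 calls were lost with limma on log2(TPM + 1) (adjusted p = 0.0561 and 0.119). Hells, a remodeller needed for methylation of repeats, fell by 17.2% and 15.6%. Cdca7, its activator, fell by 12.6% with tazemetostat and had -0.09 with valemetostat (edgeR adjusted p = 0.131). The latter was called lower with the offset (-0.16, edgeR adjusted p = 0.0031) and with limma on log2(TPM + 1) (-0.21, adjusted p = 0.0275). The third gene that rose was Pcna, the replication clamp that binds DNMT1, at 0.16 ± 0.04 and 0.12 ± 0.04, and the second that fell with valemetostat was Usp7, at -0.17 ± 0.05. Both were named after their values were seen, and neither call of Pcna was kept with the length and GC offset (edgeR adjusted p = 0.323 and 0.734) or with limma (adjusted p = 0.163 and 0.635). Pcna with valemetostat was also not called without DMSO 1, DMSO 2, valemetostat 1 or valemetostat 2 (edgeR adjusted p = 0.0568 to 0.0955), nor Usp7 without DMSO 2 or valemetostat 3 (0.0649 and 0.0893). Dppa3, an inhibitor of UHRF1, was at 0 in all libraries.

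A further list held 9 MBD-family and ZBTB genes, not all of which bind methylated CpG. Of these 0 rose, 3 fell with tazemetostat (18.2% of all genes) and 2 with valemetostat (18.7%). Zbtb38 was at 92.7, 100.3 and 89.7 CPM with DMSO, 67.0, 68.5 and 62.8 with tazemetostat and 67.7, 56.9 and 66.4 with valemetostat. Each inhibitor group lay below DMSO without overlap, while the inhibitor groups overlapped each other. The log2 fold changes were -0.51 ± 0.06 (edgeR adjusted p = 4.2e-07) and -0.56 ± 0.06 (edgeR adjusted p = 8.5e-08). Mbd1 fell by 13.4% and 13%, the latter lost without DMSO 2 (edgeR adjusted p = 0.0615). Mbd5 had -0.37 ± 0.11 with tazemetostat (edgeR adjusted p = 0.00904), lost without DMSO 1 (0.0713), with the offset (0.0676) and with limma (0.0847), and -0.21 ± 0.11 with valemetostat (edgeR adjusted p = 0.129).

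The base excision genes finish demethylation after TDG. In their list 8 of 9 were tested, 0 rose, and 2 fell with tazemetostat (18.2% of all genes) and 3 with valemetostat (18.7%). Xrcc1, the scaffold of single-strand break repair, fell by 20.4% and 17.2%, and Parp1, the sensor of such breaks, fell by 9.61% and 10%. Lig3, the ligase bound to XRCC1, had -0.10 ± 0.05 (edgeR adjusted p = 0.123) and -0.14 ± 0.05 (edgeR adjusted p = 0.0228). The second value was not called with the offset (edgeR adjusted p = 0.316), nor without DMSO 2, valemetostat 2 or valemetostat 3 (0.0696 to 0.148).

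Gadd45b, a stress-induced gene linked to active demethylation, was at 59.3, 59.6 and 58.1 CPM with DMSO, 71.0, 74.3 and 69.4 with tazemetostat and 53.9, 53.8 and 58.7 with valemetostat. It was higher in all tazemetostat libraries than in the other 6. Its log2 fold change was 0.28 ± 0.06 with tazemetostat (edgeR adjusted p = 2.9e-04) and -0.09 ± 0.06 with valemetostat (edgeR adjusted p = 0.224, and 0.00319 for -0.21 with the offset). It was the gene of the 52 that differed between the inhibitors, by -0.37 ± 0.06 for valemetostat minus tazemetostat (edgeR adjusted p = 0.00186). With limma on log2(TPM + 1) neither the tazemetostat change nor the difference between inhibitors was called (adjusted p = 0.0597 and 0.254). That fit called Gadd45b lower with valemetostat (-0.19, limma adjusted p = 0.0467).

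Hdac2, a deacetylase of the NuRD complex that MBD2 recruits, was at 136, 143 and 143 CPM with DMSO, 199.7, 198 and 199.5 with tazemetostat and 198.5, 192 and 186 with valemetostat. All inhibitor libraries were above all DMSO libraries, at log2 fold changes of 0.50 ± 0.04 (edgeR adjusted p = 1.3e-09) and 0.45 ± 0.04 (edgeR adjusted p = 9e-09). Of the 9 NuRD genes it was the 1 that rose in each comparison (19.9% and 20.5% of all genes). In the same list 1 fell with tazemetostat (18.2%) and 3 with valemetostat (18.7%). Mta1 fell by 9.07% with tazemetostat and 17% with valemetostat, the former lost without tazemetostat 2 (edgeR adjusted p = 0.0542) or tazemetostat 3 (0.0546). Chd4 and Gatad2b fell by 12.1% and 16.5% with valemetostat, at transcripts of 6697 and 7438 nt. With the offset neither was called (edgeR adjusted p = 0.111 and 0.0514). Gatad2b was not called with limma either (adjusted p = 0.111).

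Of the 5 readers of unmethylated CpG 4 were tested. Kdm2a fell by 11% with tazemetostat (edgeR adjusted p = 0.0353) and Kdm2b fell by 7.24% with valemetostat (edgeR adjusted p = 0.0373), and with the offset neither was called (0.535 and 0.271). Kdm2a also lost its call without DMSO 1, DMSO 2, tazemetostat 3 or valemetostat 2 (edgeR adjusted p = 0.0536 to 0.261), and Kdm2b without any of 7 libraries (0.058 to 0.147). Kdm2b was also not called with the replicate block (edgeR adjusted p = 0.0632), with only the groups compared (0.0716), with either other count filter (0.105 and 0.0511) or with limma (0.472), nor Kdm2a with only the groups compared (0.068). Cxxc4 was at 0 in all libraries.

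A list of 10 genes covered the methyl donor cycle and the metabolism of 2-oxoglutarate, the TET cosubstrate. Of these 5 fell with tazemetostat (18.2% of all genes), among them Mat2a, D2hgdh and Ogt. With valemetostat 2 fell (18.7% of all genes), among them Mtr, and 1 rose (20.5%), Idh2. The Idh2 call ended with the offset (edgeR adjusted p = 0.168), with limma (adjusted p = 0.372) and without DMSO 2, DMSO 3, valemetostat 1 or valemetostat 2 (0.0521 to 0.0681). D2hgdh was not called without DMSO 2 or tazemetostat 2 (edgeR adjusted p = 0.0704 and 0.0766), nor Ogt without DMSO 2 (0.0646). D2hgdh, Ogt and Idh2 were named after their values were seen.

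Mat2a, the S-adenosylmethionine synthase, fell by 13.9% with tazemetostat (edgeR adjusted p = 3.7e-04) and had -0.10 ± 0.04 with valemetostat (edgeR adjusted p = 0.0893, and 0.00917 with the offset). Mtr, methionine synthase, fell by 15.2% with valemetostat (edgeR adjusted p = 6.2e-04), a call that ended with the offset (edgeR adjusted p = 0.144).

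**Figure D4:**
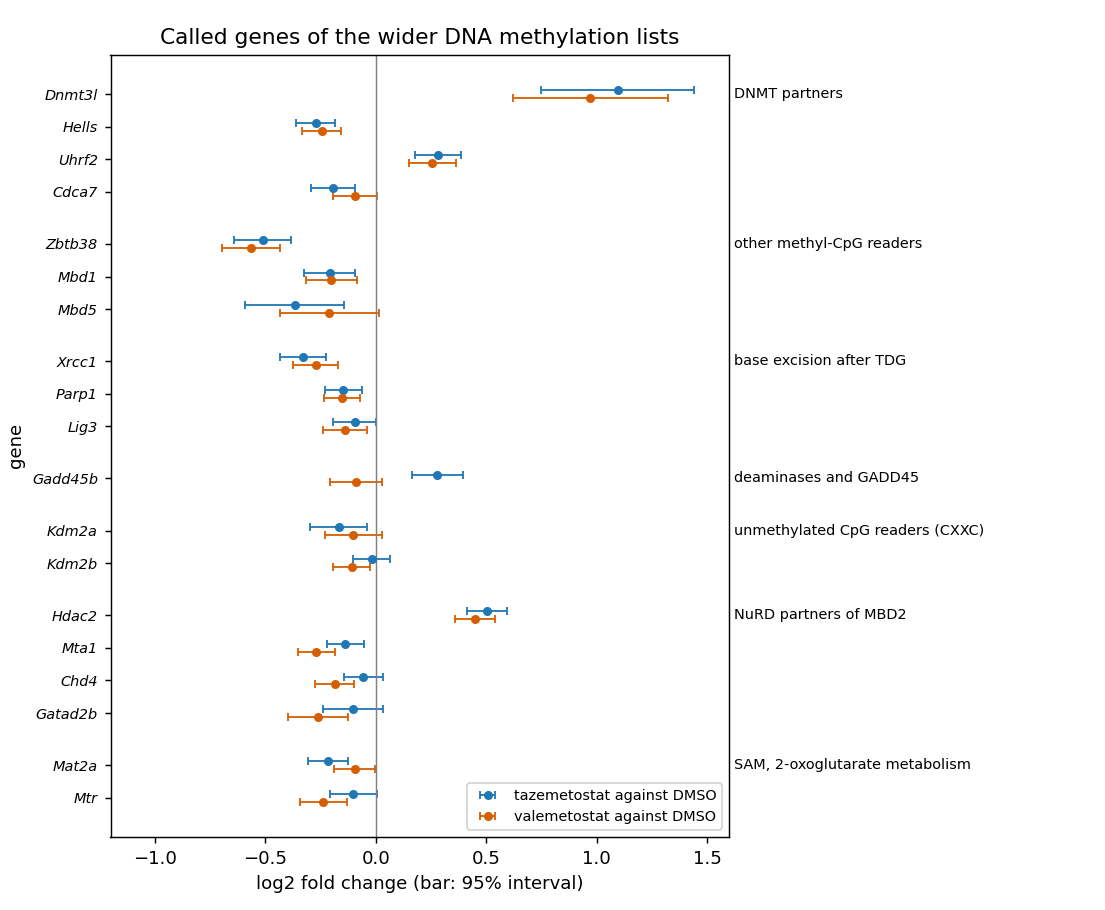
Log2 fold changes against DMSO with 95% intervals for the 19 genes of the wider lists that are reported by name by the rule, with tazemetostat in blue and valemetostat in orange, grouped by list. Dnmt3l is farthest to the right and Zbtb38 farthest to the left in both comparisons, and Gadd45b has intervals apart for the inhibitors.

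Of 10 listed germline genes that DNA methylation is known to silence, none had enough counts to be tested, and Mael, Taf7l, Sycp1 and Slc25a31 had 0 counts in all libraries. Ddx4, an RNA helicase of germ cells, had 0 counts in each DMSO library, 11, 0 and 2 in the tazemetostat libraries and 7, 4 and 3 in the valemetostat libraries. Tex101 had 0 in each DMSO library, 7, 1 and 0 with tazemetostat and 2, 5 and 0 with valemetostat. With tazemetostat the first library held 11 of 13 and 7 of 8 of these counts. Counts summed over DMSO, tazemetostat and valemetostat libraries were 7, 7 and 2 for Dazl, 4, 9 and 2 for Sycp3, 3, 9 and 19 for Tdrd1 and 0, 0 and 1 for Asz1.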

How the data were processed

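Poly(A) RNA was read as pairs, per the labels' protocols. The authors deposited whole-number counts per gene and library, and log2 values, which are log2(TPM + 1) from the values. The submitters' processing notes name mm9 as genome build. Aligner, counter, annotation and use of strand: not given in the sources used here. Library totals were 34080504 to 46675110 counts, and 0 columns belonged to no sample of the series.

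Deposited counts were tested with edgeR 4.0.16 (R 4.3.3): TMM scaling, filterByExpr (minimum count 10, total 15) and the robust quasi-likelihood F test, with all 9 libraries in 1 fit of 3 groups. Calls needed a Benjamini-Hochberg adjusted p under 0.05 over all genes tested. Intervals are 95%. SEs were derived from the fold change and its F statistic (log2 fold change divided by √F). Alternatives were DESeq2 1.42.0, limma 3.58.1 on the deposited log2 values, other scalings and filters, the replicate number as a block, only the compared groups, each library left out, and an offset. This offset was fitted per library by splines on the length and GC content of the longest GENCODE M21 transcript (GRCm38), known for 99.8% of tested genes. The script was tested on simulated data.

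The members and lists were chosen with earlier results of these data known. Named by rule were the members, up to 4 called genes of each list with the smallest p, list genes at 0 throughout, and the 3 genes most like the member with the smallest p. A few genes that the rule picks are counted in their lists and not reported here. Promoter sequences are from RefSeq (GRCm38.p6).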

Additional observations from a re-analysis of the deposited data

How the results depend on the processing

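Over all alternatives for the members, 457 values stayed on their side of the threshold, 21 lost a call and 4 gained one. These values pool the 3 comparisons, in which the main fit called 4, 5 and 0 members. Many of the 457 therefore had no call to lose, and their number does not measure how stable the calls were. The call of Dnmt3a with tazemetostat ended with a change of sign under the length and GC offset (log2 fold change 0.0059). Of the 457, 25 changed sign at values called in neither fit, 16 of them of Tet1 or Mbd2. Pcna with valemetostat was -0.0165 with the offset. With limma on log2(TPM + 1), members called were 1 of 9 for tazemetostat (Uhrf1, and not Tet3, adjusted p = 0.0669) and 3 for valemetostat. Genes called for tazemetostat were then 3123, 37.7% of them higher, against 4794 and 52.3%. For valemetostat 3308 genes were called with limma, 36% of them higher. With library totals alone 45.8% of called genes were higher with tazemetostat. With only the groups compared, 2 members were called for tazemetostat. Leaving out 1 library gave 1 to 4 members for tazemetostat (2 without DMSO 1, DMSO 2 or tazemetostat 1, and 1 without tazemetostat 3), 4 to 6 for valemetostat and 0 for the difference between inhibitors. Genes differing between the inhibitors were 40, and 75 with DESeq2, 93 with no count filter, 80 with the offset, 1 with limma, and 9 (without valemetostat 2) to 73 (without tazemetostat 3) with 1 library left out. They were 11 without tazemetostat 1, 19 without tazemetostat 2 and 13 without valemetostat 1. Of the wider lists 0 genes differed between inhibitors with limma. The cause of these changes was not tested. Deviations of same-numbered libraries had correlations of -0.04 to 0.076, and 0 of 9 pairs exceeded 0.1. Other pairs had -0.076 to 0.062. The labels do not say whether same-numbered libraries were handled together, and these values cannot exclude it. With the replicate block, 4527, 4713 and 32 genes and 4, 5 and 0 members were called in the 3 comparisons.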
